A study of Mus musculus with 4 samples.

Results

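The genes described here encode the invariant chains of the T cell receptor complex (Cd3d, Cd3e, Cd3g, Cd247), the coreceptors Cd4, Cd8a and Cd8b1, the surface regulators Cd5 and Cd6, and the interleukin-7 receptor chain Il7r. They were read in lung tumours of CD109-/- and CD109+/+ KP mice by taking every probe whose transcript accession belongs to 1 of these 10 genes, of 23787 genes named on the array. This gave 16 probes of 56605. Of the 16 probes, 12 were well above background on all 4 arrays, and these were the ones tested. They stand for 9 of the 10 genes. Of the others, 1 Cd8a probe was well above background on 1 array, and 3 probes (2 of Cd247 and 1 of Cd8a) on none.

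The CD109-/- group held 2 tumour samples, replicate 1 from a male and replicate 2 from a female, and the CD109+/+ group held 2 samples, both from females. All 4 came from mice of strain C57BL/6J of the KP model of lung tumours, in which Cre recombinase recombines the engineered alleles in the cells it reaches. Adenovirus carrying Cre was given through the trachea 88 to 92 days before RNA was taken, so the tumours were started in the lung itself and all groups carry the KP alleles. The sources used here give neither the animals' ages nor the promoter that drives Cre. The CD109-/- samples differ in sex and so come from different animals, whereas for the CD109+/+ pair the labels do not state it. P-values and standard errors reflect only the spread between these samples. For each probe limma moderates that spread with the spread of all tested probes (3.02 prior and 2 residual degrees of freedom). Each sample was hybridised to 1 single-colour array, so precision is limited by having 2 arrays per genotype.

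Between 64.3% and 67.0% of the spots on an array were well above background, and 0 were saturated. The targeted gene Cd109 was not well above background in CD109-/- tumours, with a mean log2 value of -7.93 ± 0.08, against -4.18 ± 0.68 in CD109+/+ tumours (SD, n = 2 each). It was at least 2.92-fold lower in CD109-/- tumours (limma adjusted p = 0.299). Where the deleted sequence lies relative to this probe was not examined. The lung epithelial genes Sftpc, Nkx2-1 and Epcam were well above background on all 4 arrays. Sftpc, which encodes surfactant protein C, had log2 values of 8.92 and 8.79 in CD109-/- tumours, against 9.11 and 8.96 in CD109+/+ tumours.

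The T cell receptor has no signalling domain of its own. Its antigen-binding chains travel to the cell surface only with the CD3 delta, epsilon and gamma chains and the zeta chain, whose cytoplasmic tails carry tyrosine motifs that the kinase LCK phosphorylates and the kinase ZAP70 then binds. CD4 and CD8 bind MHC class II and class I molecules and bring LCK to the complex, and in tumours CD8 marks the cytotoxic lineage and CD4 the helper and regulatory ones. In whole tumour RNA, fewer cells of a type and less RNA per cell cannot be told apart. All log2 values below are relative to the 75th percentile of the same array, a difference is the CD109-/- mean minus the CD109+/+ mean, and the ± after it is limma's standard error (n = 2 for each genotype). Levels of different probes are not comparable with each other. Where each probe lies in its transcript was not examined, including the Cd3e, Cd4 and Cd247 probes of very different brightness.

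Among the CD3 genes, Cd3d and Cd3g had higher signals in both CD109-/- tumours than in either CD109+/+ tumour, whereas Cd3e differed little. The brighter Cd3d probe (A_66_P109615) gave log2 values of -1.17 and -1.10 in CD109-/- tumours, against -3.10 and -2.43 in CD109+/+ tumours. The CD109-/- pair lay close together and the CD109+/+ pair further apart, without overlap between genotypes. The difference was 1.63 ± 0.31, a 3.09-fold higher mean in CD109-/- tumours (limma adjusted p = 0.551). The other Cd3d probe (A_51_P285206) gave -2.09 and -2.21 in CD109-/- tumours, against -4.45 and -3.57 in CD109+/+ tumours, a difference of 1.86 ± 0.36 (limma adjusted p = 0.551). The 2 Cd3d probes thus showed the same order of arrays within the CD109+/+ genotype, with replicate 1 the lowest of all.

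Cd3g encodes the gamma chain, which pairs with epsilon. Its probe gave log2 values of -2.77 and -2.62 in CD109-/- tumours, against -4.59 and -3.88 in CD109+/+ tumours, with CD109+/+ replicate 1 again the lowest array. The difference was 1.54 ± 0.32 (limma adjusted p = 0.573). It was 0.67 with normexp background correction, run with an offset of 50 that shrinks differences of dim probes. Cd3e encodes the epsilon chain, which is present in every CD3 dimer. Its brighter probe (A_55_P2156229) gave -0.21 and -0.43 in CD109-/- tumours, against -0.47 and -0.77 in CD109+/+ tumours. The lower CD109-/- value lay just above the higher CD109+/+ value, and the difference of 0.30 ± 0.25 (limma adjusted p = 0.849) had a 95% interval of -0.35 to 0.95. The dimmer Cd3e probe (A_51_P455681) gave -3.91 and -4.22 in CD109-/- tumours, against -4.21 and -4.19 in CD109+/+ tumours. Here the genotypes overlapped, with a difference of 0.13 ± 0.25 (limma adjusted p = 0.937).

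**Figure D1:**
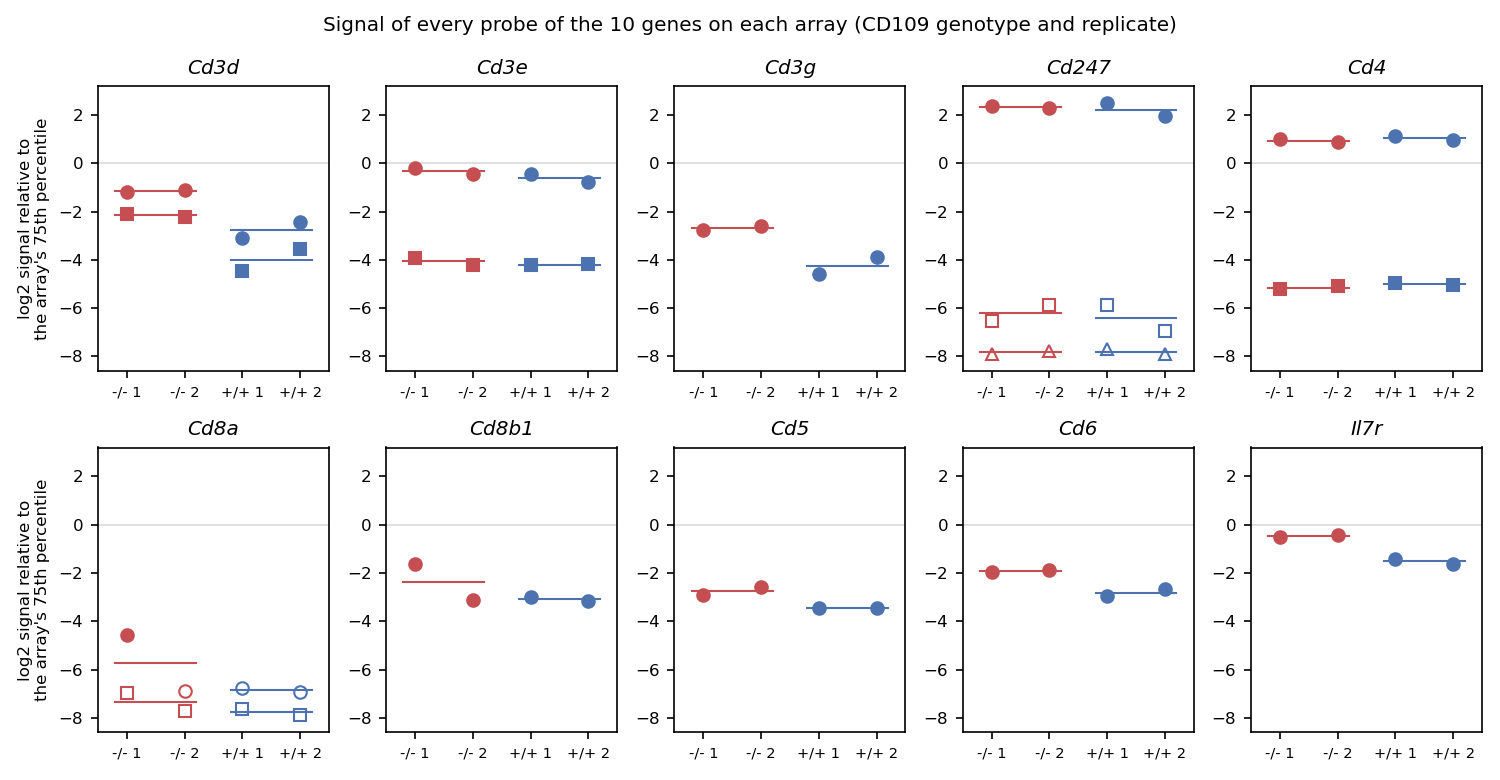
Log2 signal relative to the array's 75th percentile (y axis) of all 16 probes of the 10 genes on each of the 4 arrays (x axis, CD109 genotype and replicate). Each symbol shape is 1 probe of the gene, filled symbols are well above background, open ones are not, and horizontal lines are the means of a genotype (n = 2). Cd3d, Cd3g, Cd5, Cd6 and Il7r are higher on both CD109-/- arrays, and Cd8a and Cd8b1 stand out on CD109-/- replicate 1.

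The promoters of these genes are shown because the 3 CD3 genes sit side by side, Cd3d and Cd3g in opposite orientation, and yet differed by unequal amounts. Of the 10 genes, 7 had a promoter in the RefSeq table (build GRCm38.p6), from which the 250 bases before the first listed start were taken. The Cd3d stretch lies at chr9:44981536-44981785 on the + strand, that of Cd3g at chr9:44980432-44980681 on the - strand, that of Cd3e at chr9:45009612-45009861 on the - strand and that of Il7r at chr15:9529877-9530126 on the - strand. Each is written 5′ to 3′ along its gene, and capitals mark matches on either strand to motifs of factors active in T cells.
Cd3d: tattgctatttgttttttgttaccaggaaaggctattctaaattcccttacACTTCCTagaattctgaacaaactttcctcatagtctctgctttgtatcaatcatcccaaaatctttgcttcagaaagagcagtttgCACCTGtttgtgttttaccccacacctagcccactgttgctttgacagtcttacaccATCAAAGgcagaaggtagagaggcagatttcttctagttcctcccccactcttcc
Cd3g: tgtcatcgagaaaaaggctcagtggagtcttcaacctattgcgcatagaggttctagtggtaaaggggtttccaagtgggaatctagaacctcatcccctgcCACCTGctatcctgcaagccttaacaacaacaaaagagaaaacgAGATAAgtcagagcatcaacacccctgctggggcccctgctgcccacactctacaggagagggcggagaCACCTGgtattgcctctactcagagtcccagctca
Cd3e: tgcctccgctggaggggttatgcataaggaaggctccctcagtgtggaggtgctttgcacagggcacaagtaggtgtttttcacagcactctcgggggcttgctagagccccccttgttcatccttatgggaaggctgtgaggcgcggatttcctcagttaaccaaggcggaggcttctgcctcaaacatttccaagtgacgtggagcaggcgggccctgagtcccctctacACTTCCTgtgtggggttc
Il7r: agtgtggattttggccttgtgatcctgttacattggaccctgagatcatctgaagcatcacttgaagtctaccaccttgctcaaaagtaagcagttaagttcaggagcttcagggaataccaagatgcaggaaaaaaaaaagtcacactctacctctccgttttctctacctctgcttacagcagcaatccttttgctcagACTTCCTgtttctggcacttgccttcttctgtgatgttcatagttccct
The motif searched for TCF/LEF factors was ATCAAAG, and the motif for RUNX factors was TGTGGTT. For E proteins, CAGGTG was searched, as was the related letter order CAGCTG. The ETS family was represented by the motif AGGAAGT, and the GATA family by the motif AGATAA. Both strands were read, and 0 of the matches overlapped another motif. Cd3d held 1 TCF/LEF, 1 ETS and 1 CAGGTG match, and Cd3g held 2 CAGGTG matches and 1 GATA match. Cd3e and Il7r held 1 ETS match each, ending 11 and 42 bases before the start. Among 27025 promoter stretches of the same length, 3.23% held the TCF/LEF motif, 7.80% the ETS motif, 17.1% CAGGTG, 12.8% CAGCTG, 10.3% the GATA motif and 4.46% the RUNX motif. In the Cd247 stretch 1 ETS and 1 CAGGTG match were found, in Cd5 1 ETS and 2 CAGGTG matches, and in Cd8a 0 matches. These matches are letters in a window, and binding of a factor there was not measured.

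Cd247 encodes the zeta chain, which carries most of the complex's tyrosine motifs and is also used by NK cell receptors. Of its 3 probes, 1 was well above background (A_55_P2487460), with log2 values of 2.35 and 2.27 in CD109-/- tumours, against 2.48 and 1.95 in CD109+/+ tumours. The CD109-/- values lay between the CD109+/+ values, and the difference was 0.10 ± 0.28 (limma adjusted p = 0.965; 95% interval -0.63 to 0.82). Without CD109+/+ replicate 2 the Cd247 difference was -0.17. The other Cd247 probes were not well above background on any array, at -7.88 to -5.86 in CD109-/- tumours and -7.92 to -5.87 in CD109+/+ tumours. The small Cd247 difference thus rests on 1 probe whose position in the transcript was not examined.

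The coreceptor genes did not follow Cd3d and Cd3g. Cd4 had log2 values of 0.99 and 0.87 in CD109-/- tumours, against 1.13 and 0.98 in CD109+/+ tumours, at its brighter probe (A_55_P2013655). These overlapped, with a difference of -0.12 ± 0.23 (limma adjusted p = 0.940; 95% interval -0.71 to 0.47). The dimmer Cd4 probe (A_52_P383089) gave -5.22 and -5.10 in CD109-/- tumours, against -4.96 and -5.03 in CD109+/+ tumours. It was the only tested probe of the 10 genes with lower values on both CD109-/- arrays, by 0.17 on the log2 scale in the mean, which was less than its standard error of 0.23.

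Cd8a and Cd8b1, the chains of the CD8 heterodimer of cytotoxic T cells, stood out on a single array. Cd8b1 gave log2 values of -1.62 and -3.11 in CD109-/- tumours, against -2.98 and -3.16 in CD109+/+ tumours. CD109-/- replicate 1, the male, was high, and CD109-/- replicate 2 lay among the CD109+/+ values. The Cd8b1 difference of 0.71 ± 0.52 (limma adjusted p = 0.832) thus rested on that array. Leaving out CD109-/- replicate 1 gave -0.04, and leaving out CD109-/- replicate 2 gave 1.45. For Cd8a, the probe A_52_P443334 was well above background on CD109-/- replicate 1 only, with processed signals of 28.8 and 5.85 in CD109-/- tumours, against 5.19 and 5.54 in CD109+/+ tumours. On the log2 scale these were -4.55 and -6.88, against -6.75 and -6.91. The probe A_52_P150547, which was not well above background on any array, had its highest value on the same array (-6.96 and -7.72 in CD109-/- tumours, against -7.64 and -7.89 in CD109+/+ tumours). Neither Cd8a probe met the condition for testing. For the first, measured on 1 of the 2 CD109-/- arrays, the CD109-/- mean was 1.03 times the lowest level well above background on the CD109+/+ arrays. That mean includes replicate 2, which was not well above background, so no bound on the difference is drawn from it.

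Cd5 and Cd6 encode related scavenger-receptor proteins that sit near the receptor on T cells and tune its signal, CD5 being also found on a subset of B cells. Cd5 had log2 values of -2.91 and -2.59 in CD109-/- tumours, against -3.46 and -3.45 in CD109+/+ tumours. The genotypes did not overlap, and the difference was 0.70 ± 0.25 (limma adjusted p = 0.691). With normexp and its offset of 50 the Cd5 difference was 0.29. Cd6 gave -1.98 and -1.87 in CD109-/- tumours, against -2.97 and -2.66 in CD109+/+ tumours. The CD109-/- arrays were both higher, by 0.89 ± 0.25 (limma adjusted p = 0.623). Among the ligands of CD6, Alcam had log2 values of 5.73 and 6.10 in CD109-/- tumours, against 4.92 and 5.52 in CD109+/+ tumours, a difference of 0.69 ± 0.31 (limma adjusted p = 0.757). Cdcp1, the other CD6 ligand read, differed by -0.30 ± 0.28.

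Il7r encodes the alpha chain of the interleukin-7 receptor, on which naive and memory T cells and innate lymphoid cells depend, and which also serves in the receptor for TSLP. It had log2 values of -0.52 and -0.41 in CD109-/- tumours, against -1.41 and -1.61 in CD109+/+ tumours. The distance between genotypes was several times that between replicates, and the mean was 2.07-fold higher in CD109-/- tumours (difference 1.05 ± 0.23, limma adjusted p = 0.580). Over 15 alternative ways of processing, several of which cannot change this difference, the Il7r difference ranged from 0.91 to 1.15. Of the 11 other genes of the interleukin-7 axis, all tested, 8 had a higher mean in CD109-/- tumours, against 50.3% of all tested genes. Without overlap 7 were higher and 0 lower, against 20.3% and 18.3% of all tested genes, and the median difference was 0.39. The ligand Il7 differed by -0.10 ± 0.27 and the ligand Tslp by 0.82 ± 0.43. The shared receptor chain Il2rg differed by 0.73 ± 0.27, and the kinase Jak3 and the transcription factor Stat5b downstream of it by 0.45 ± 0.25 and 0.34 ± 0.29. Stat5a, the close relative of Stat5b, differed by -0.02 ± 0.27.

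**Figure D2:**
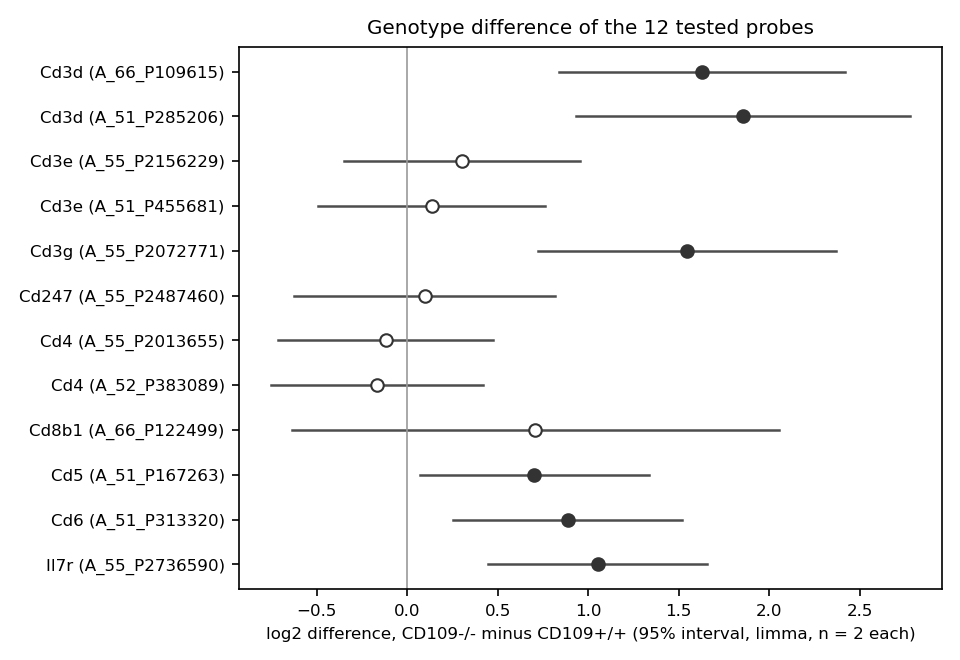
Log2 difference between genotypes, CD109-/- minus CD109+/+ (x axis), of the 12 tested probes (y axis). Points are limma estimates with 95% intervals (n = 2 per genotype), filled where the unadjusted p was under 0.05. The intervals of Cd3d, Cd3g, Cd5, Cd6 and Il7r lie above 0, and those of Cd3e, Cd247, Cd4 and Cd8b1 span 0.

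No probe of the 10 genes passed the Benjamini-Hochberg threshold of 0.05 over the 35776 probes tested with limma, and 0 of all probes did (0%). The lowest adjusted p was 0.551 among the tested probes of these genes and 0.288 over all probes. At an unadjusted p under 0.05 there were 6 of 12 probes, all with higher values in CD109-/- tumours, against 6.81% of all tested probes in either direction, 3.87% with higher and 2.94% with lower values. The mean was higher in CD109-/- tumours at 10 of the 12 probes, against 44.5% of all tested probes. These 6 probes belong to Cd3d, Cd3g, Cd5, Cd6 and Il7r. Which probes had an unadjusted p under 0.05 depended on the array left out. Without CD109-/- replicate 2 the Cd5 difference was 0.54 and that of Cd8b1 1.45. When 1 array was left out, the Cd6 difference ranged from 0.73 to 1.04 and that of Il7r from 0.95 to 1.15. Without overlap between genotypes, 7 of the 12 probes were higher and 1 lower in CD109-/- tumours, against 16.5% higher and 21.3% lower among all tested probes. By gene, taking the brightest tested probe, 5 of the 9 genes had an unadjusted p under 0.05, against 7.53% of 16444 tested genes. By gene, 6 of the 9 were higher and 0 lower without overlap, against 20.3% and 18.3% of all tested genes, and 8 had a higher mean, against 50.3%. The median difference was 0.71 over the 9 genes and 0.003 over all tested genes. The genes were chosen with earlier results of these data known, so these counts describe them and are no independent evidence.

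Because the members differed by unequal amounts, each was also set against Cd3e on the same array. Relative to Cd3e, the CD109-/- mean was higher by 1.33 on the log2 scale for Cd3d, 1.24 for Cd3g, 0.75 for Il7r and 0.59 for Cd6, in each case without overlap between genotypes. Cd4 and Cd247 gave -0.42 and -0.20 on this scale, also without overlap. Cd5 and Cd8b1 overlapped, at 0.40 and 0.41. The exact two-sided permutation test over the 4 arrays gave p = 0.333 for each non-overlapping gene, the smallest it can give with 2 against 2.

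Genes expressed by leukocytes in general were higher on the same arrays. Ptprc (CD45), a phosphatase on all nucleated blood cells, had log2 values of 1.34 and 1.38 in CD109-/- tumours, against 0.20 and 0.48 in CD109+/+ tumours, a difference of 1.02 ± 0.24 (limma adjusted p = 0.588). All 6 pan-leukocyte genes were higher without overlap, against 20.3% of all tested genes, with a median difference of 0.98. Their summed level on the log2 scale was 4.82 to 4.97 in CD109-/- tumours and 3.86 to 4.07 in CD109+/+ tumours. Relative to the median of these 6 genes on each array, a scale added after the data were seen, the median difference of the 9 T lineage genes was -0.19 in place of 0.71. That median was taken over uncentred levels, so it rests on the probes of middle brightness and not on all 6 genes equally. These were Arhgdib and Laptm5, or Arhgdib and Ptprc on CD109+/+ replicate 2. It was higher by 0.90 in CD109-/- tumours. Arhgdib differed by 0.77 (0.21 at its further tested probe) and Laptm5 by 1.11. On that scale Cd3d stood at 0.73, Cd3g at 0.65, Il7r at 0.15, Cd6 at -0.01, Cd5 at -0.20, Cd8b1 at -0.19, Cd3e at -0.60, Cd247 at -0.80 and Cd4 at -1.02. Cd3d remained above the CD109+/+ arrays on both CD109-/- arrays, Cd3e, Cd247 and Cd4 lay below them, and the other 5 genes overlapped.

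**Figure D3:**
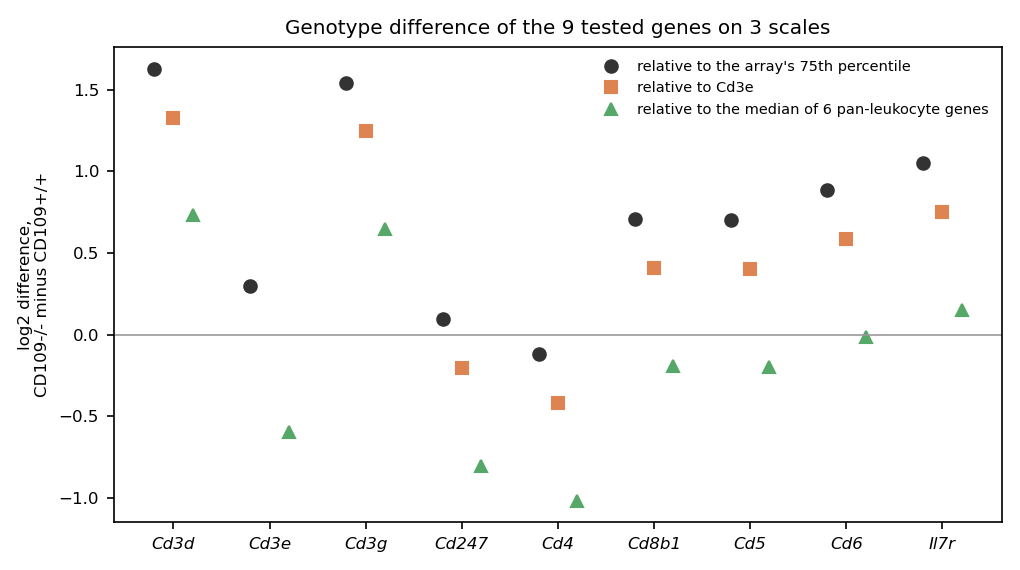
Log2 difference, CD109-/- minus CD109+/+ (y axis), of the 9 tested genes (x axis) relative to the array's 75th percentile, to Cd3e and to the median of 6 pan-leukocyte genes (n = 2 per genotype). Cd3d, Cd3g and Il7r are above 0 on all 3 scales, and Cd4 is below 0 on all 3.

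The genes that carry the receptor's signal were read from a list of 30, of which 26 were tested. Of these, 22 had a higher mean in CD109-/- tumours, against 50.3% of all tested genes. Without overlap 13 were higher and 1 lower, against 20.3% and 18.3% of all tested genes. An unadjusted limma p under 0.05 was found for 8, all higher, against 5.05% of all tested genes. The median difference was 0.36. The adaptor Lcp2 (SLP-76) differed by 0.84 ± 0.27, Prkcq by 0.98 ± 0.43 and the adaptor Lat by 0.47 ± 0.26. The kinases Lck and Zap70 did not separate the genotypes. Lck had -0.81 and -0.59 in CD109-/- tumours, against -0.62 and -0.87 in CD109+/+ tumours. Zap70 differed by 0.34 ± 0.36 (0.50 at its further tested probe). Fyn, a further kinase of the list, was higher without overlap, by 0.65 ± 0.33. The phosphatase Ptpn22 differed by 0.14 ± 0.38, and Themis was not well above background on any array.

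Costimulatory and adhesion genes gave a median of 0.67. Of 12 tested members 10 had a higher mean, against 50.3% of all tested genes, 8 of them without overlap, against 20.3%. Cd2, an adhesion receptor of T and NK cells, had log2 values of -0.81 and 1.23 in CD109-/- tumours, against -1.51 and -1.39 in CD109+/+ tumours, so that CD109-/- replicate 2 was far above the other arrays. Its difference was 1.66 ± 0.68 (limma adjusted p = 0.740). The costimulators Cd28 and Icos differed by 0.25 ± 0.28 and 0.55 ± 0.30. The constant regions of the T cell receptor chains (Trac, Trbc1, Trbc2, Trdc and the gamma genes) had no probe named through an accession and were not analysed here.

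Among 14 tested transcription factors of the T lineage, 7 were higher and 2 lower without overlap, against 20.3% and 18.3% of all tested genes, with a median of 0.30. Gata3, which drives type 2 helper T cells and is also used by type 2 innate lymphoid cells, gave -2.59 and -2.22 in CD109-/- tumours, against -4.58 and -3.73 in CD109+/+ tumours. Its difference was 1.75 ± 0.37 (limma adjusted p = 0.574), and it was the only 1 of the 14 with an unadjusted p under 0.05. Tbx21, the type 1 counterpart, differed by 0.44 ± 0.23 and Runx3, of the CD8 lineage, by 0.72 ± 0.41. The further Runx3 probe gave -0.23, and the brighter one was high mainly on CD109-/- replicate 1 (-3.53 and -4.61 in CD109-/- tumours, against -4.76 and -4.82 in CD109+/+ tumours). Foxp3, which defines regulatory T cells, gave -4.23 and -4.94 in CD109-/- tumours, against -4.07 and -5.22 in CD109+/+ tumours, and the genotypes overlapped. Zbtb7b, which specifies CD4 T cells, differed by -0.10 ± 0.47. The pan-T factors lay on both sides of 0, with Tcf7 at 0.38 ± 0.25, Lef1 at -0.28 ± 0.25 and Bcl11b at -0.76 ± 0.40.

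Of the genes of naive T cells that recirculate through lymph nodes, 2 of 8 tested were higher and 1 lower without overlap, near the 20.3% and 18.3% of all tested genes, and the median was 0.09. The lymph node homing receptor Ccr7 had log2 values of -0.90 and -1.25 in CD109-/- tumours, against -1.95 and -2.10 in CD109+/+ tumours, a difference of 0.95 ± 0.25 (limma adjusted p = 0.618), and its other probe gave 0.87. S1pr1, which guides exit from lymph nodes, differed by 0.19 ± 0.29.

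**Figure D4:**
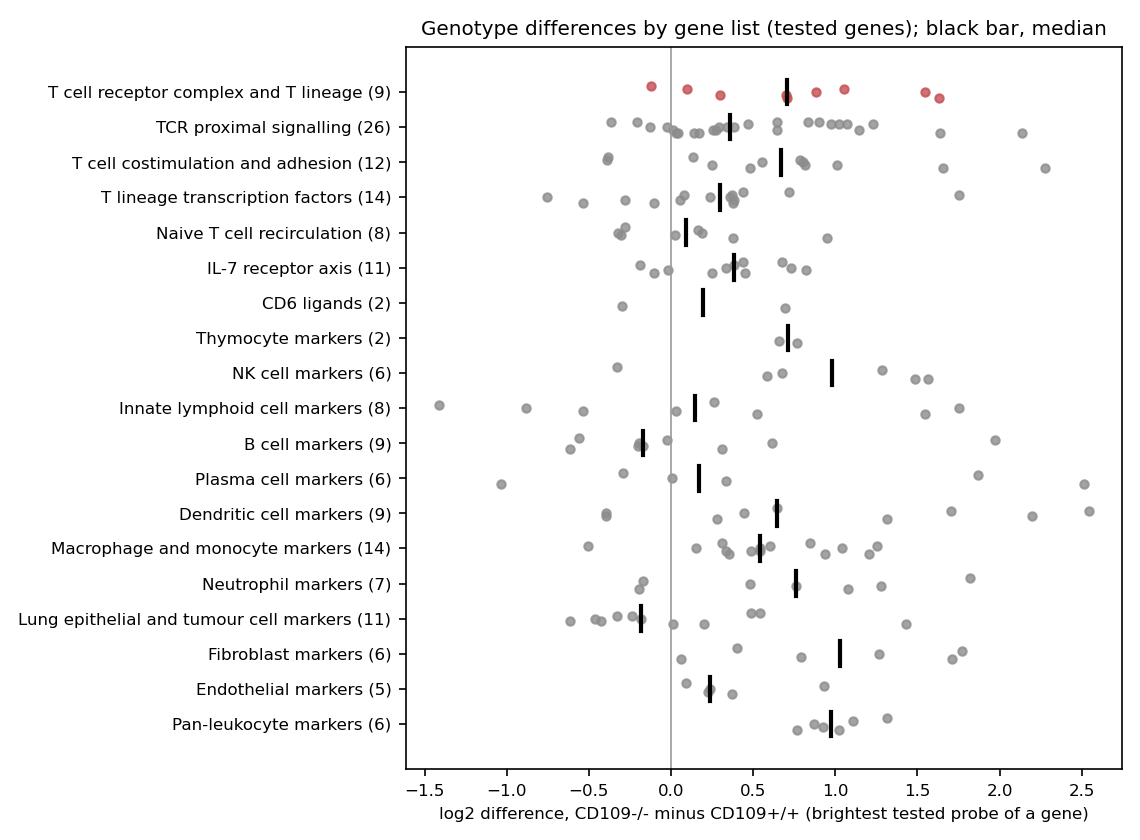
Log2 difference, CD109-/- minus CD109+/+ (x axis), of the tested genes of each list (y axis, number of tested genes in parentheses). Points are genes at their brightest tested probe (n = 2 per genotype) and black bars are medians. The T lineage genes range from -0.12 to 1.63, the 6 pan-leukocyte genes all lie above 0, and the B cell and lung epithelial medians lie below 0.

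Several of these genes are shared with other cells, whose markers had the values below, and the part of those cells in the values above was not tested. NK cells use Cd247 and Cd2. The defining NK genes Ncr1 and Klrb1c were not well above background on any array. Of 6 tested NK list genes, 5 were higher and 1 lower without overlap, against 20.3% and 18.3% of all tested genes (median 0.98). The summed level of the tested NK genes was 0.38 to 1.01 in CD109-/- tumours and 0.11 to 0.47 in CD109+/+ tumours. Gzma, a protease of NK and cytotoxic T cell granules, gave -0.32 and -1.44 in CD109-/- tumours, against -1.91 and -2.41 in CD109+/+ tumours, with CD109-/- replicate 1 highest, as for Cd8b1. Innate lymphoid cells use Il7r, Gata3 and Rora. Of their 8 tested genes, 3 were higher and 1 lower without overlap, against 20.3% and 18.3% of all tested genes, and the median was 0.15. Their summed level was 3.35 to 3.77 in CD109-/- tumours and 3.74 to 4.06 in CD109+/+ tumours, the other way round from the median, since such a sum follows its brightest probes. Il1rl1, the interleukin-33 receptor, gave -3.33 and -2.22 in CD109-/- tumours, against -4.41 and -4.24 in CD109+/+ tumours, and Rora differed by 0.03 ± 0.33. Il17rb, another gene of type 2 innate lymphoid cells, differed by -1.41 ± 0.62 and was lower without overlap, and Areg differed by -0.88 ± 0.56.

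B cells, of which some carry CD5, had 2 genes higher and 3 lower without overlap among 9 tested, against 20.3% and 18.3% of all tested genes, and a median of -0.17. Their summed level was 1.08 to 1.87 in CD109-/- tumours and 1.24 to 1.98 in CD109+/+ tumours, and follows mainly the bright Cd79b probe. Cd79a differed by -0.20 ± 0.27 and Ms4a1 by -0.17 ± 0.23, the further Ms4a1 probe giving 1.53. Some dendritic cells carry CD8A. Of 9 tested dendritic genes 6 were higher and 1 lower without overlap, against 20.3% and 18.3% of all tested genes (median 0.65). Their summed level was 6.46 to 6.55 in CD109-/- tumours and 6.86 to 6.92 in CD109+/+ tumours. That sum is nearly all the Siglech probe (6.54 and 6.44 in CD109-/- tumours, against 6.91 and 6.86 in CD109+/+ tumours) and does not describe the other dendritic genes. Clec9a, of cross-presenting dendritic cells, gave -3.22 and -2.78 in CD109-/- tumours, against -4.27 and -4.36 in CD109+/+ tumours. Xcr1 of the same cells was well above background on CD109+/+ replicate 1 only. Of 14 macrophage and monocyte genes 10 were higher and 1 lower without overlap, against 20.3% and 18.3% of all tested genes (median 0.54). Adgre1 differed by 0.94 ± 0.26 and Csf1r by 0.49 ± 0.23 (0.00 at its further tested probe). The summed level of the 14 genes was 7.10 to 7.29 in CD109-/- tumours and 6.93 to 7.003 in CD109+/+ tumours. The genes of developing thymocytes Rag1, Rag2 and Ptcra were not well above background on any array. Dntt, also a thymocyte gene, gave -2.55 and -4.03 in CD109-/- tumours, against -4.12 and -4.00 in CD109+/+ tumours, and was high only on CD109-/- replicate 1. Markers of further cell types were also read. All 6 fibroblast genes had a higher mean in CD109-/- tumours, against 50.3% of all tested genes, 5 of them without overlap, against 20.3%. Their median was 1.03, above that of the T lineage genes. Of 7 neutrophil genes 3 were higher and 1 lower without overlap, against 20.3% and 18.3% of all tested genes (median 0.76). Of 6 tested plasma cell genes 2 were higher and 2 lower without overlap, against the same shares of all tested genes (median 0.17). Jchain differed by 2.51 ± 0.42, Mzb1 by 1.87 ± 0.35 and Derl3 by -1.04 ± 0.23. Stat5a, Fyn, Arhgdib, Laptm5, Il17rb, Areg, Cd79b, Siglech, Jchain, Mzb1 and Derl3 were picked for naming after their values were seen. Lung epithelial and tumour cell genes had a median of -0.18. Among 11 of them 2 were higher and 2 lower without overlap, near the 20.3% and 18.3% of all tested genes. Their summed levels were 10.4 to 10.6 in both genotypes.

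The mean profile of the 9 tested genes, centred over the 4 arrays, was 0.44 and 0.31 in CD109-/- tumours, against -0.40 and -0.36 in CD109+/+ tumours. Among 14390 other named genes well above background on all arrays, those with the smallest root-mean-square distance from it over the 4 arrays were Cxadr (0.031), Lpl (0.034), Spi1 (0.040), Blnk (0.047) and Gpr182 (0.047). Cxadr encodes the adenovirus receptor of epithelial junctions, Lpl lipoprotein lipase, Spi1 the myeloid and B cell factor PU.1, Blnk a B cell adaptor and Gpr182 an endothelial receptor. With 4 arrays such likeness is a description only.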

How the data were processed

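Total RNA (100 ng) of 4 lung tumour samples was labelled with Cy3 and hybridised to Agilent arrays, 1 sample per array, per the labels' protocols. The authors' scanner files hold linear intensity values made with Agilent Feature Extraction 12.1.0.3, per the file headers; the processed signal is background-subtracted and not scaled between arrays. A deposited table of processed intensity values equals each array's processed signal times 1 constant (1.04 to 1.21) and served as an alternative.

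Between 58 and 73 spots of an array carried an outlier mark and were dropped, and replicate spots were averaged as log2 values minus the array's 75th percentile. Testing required a probe to be well above background in both samples of 1 or both genotypes (35776 probes), and genotypes were compared with limma 3.58.1 in R 4.3.3 (lmFit, eBayes, two-sided, no covariates). Gene symbols come from matching probe accessions to RefSeq (assembly GRCm38.p6), and 34566 probes had a symbol. The array design uses build mm9, so no gene coordinates are given from that table, and promoter positions are in GRCm38.p6. Gene lists are described at each gene's brightest tested probe. A bound for a probe not well above background in 1 genotype is the bright mean against, per array, the higher of its own value and the lowest value well above background. The genes, lists and tests were chosen with earlier results of these data known. By rule, all 10 genes, a fixed set of list genes and the 5 nearest profiles are named, and a few items that the rule names are not reported here. The alternatives are other background corrections, normalizations, filters, covariates and probe choices, and each array left out. The procedure was tested on simulated data.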

Additional observations from a re-analysis of the deposited data

How the results depend on the processing

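The differences of Cd3d, Cd3e, Cd3g, Cd5, Cd6 and Il7r kept a positive sign and that of Cd4 a negative one under 15 alternatives, but on the pan-leukocyte scale Cd3e, Cd5 and Cd6 turned negative. Several of the 15 cannot change a tested gene's difference, among them the filters, the authors' rescaled values, the mean-variance trend and the replicate block. Sex as a covariate gives the same differences as leaving out CD109-/- replicate 1, the only male. The kept signs thus rest on fewer than 15 separate checks. Cd247 gave -0.17 to 0.36 when 1 array was left out, the lowest without CD109+/+ replicate 2. Cd8b1 gave -0.039 with sex as a covariate and -0.039 to 1.45 when 1 array was left out, the lowest without CD109-/- replicate 1. Cd3d ranged from 1.09 to 1.96 and Cd3g from 0.67 to 1.90, the lowest values being those with normexp, which could be run only on median spot and background signals. It was run with an offset of 50 added to every signal, which by itself shrinks the log2 differences of dim probes. Cd3g, for example, had processed signals of 23.1 and 45.4 in CD109+/+ tumours. The values with normexp therefore do not separate the correction from the offset. Probes past the threshold numbered 0 under every alternative except without CD109-/- replicate 2, with a range of 0 to 2 when 1 array was left out. Probes with an unadjusted p under 0.05 numbered 3949 with the replicate number as a block, 1219 in the fit by gene (of 16444 genes) and 1043 to 4580 when 1 array was left out, against 2438. The median difference of the T lineage genes was 0.48 with normexp, 0.80 without the filter on dim probes (which adds Cd8a), 0.86 with sex as a covariate, 0.71 to 0.86 when 1 array was left out, and -0.19 relative to the pan-leukocyte list. The cause of these shifts was not tested. With 2 replicates per genotype the same-numbered arrays deviated together (r = 0.35 across probes), but with only 2 pairs and no label of a shared batch the pairing is a number only, and the block left 6 probes of these genes with an unadjusted p under 0.05. In a fit with 1 array removed, the array remaining alone takes its spread from the other genotype.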

Other observations

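Further genes of T cell signalling and adhesion, chosen after their values were seen, had higher values on both CD109-/- arrays. Tespa1, an adaptor of T cell receptor signalling, was at least 1.61-fold higher in CD109-/- tumours, where both CD109+/+ arrays failed to reach well above background (limma adjusted p = 0.481). Cd226, an activating receptor of T and NK cells, gave -3.73 and -3.91 in CD109-/- tumours, against -6.70 and -5.49 in CD109+/+ tumours, and was not well above background on CD109+/+ replicate 1. Its difference was 2.27 ± 0.45 (limma adjusted p = 0.551). The adaptor Skap1 differed by 1.14 ± 0.28 and the GTPase gene Rhoh by 1.02 ± 0.25. Vav1, used by other leukocytes as well, differed by 1.07 ± 0.29. The 2 lymphocyte genes Ly9 and Slamf6, of the SLAM family, differed by 1.01 ± 0.23 and 0.82 ± 0.24. Other tested genes of the same lists had a lower mean in CD109-/- tumours. In the signalling list these were Ubash3a (-0.36, lower without overlap), Nfatc1 (-0.21), Plcg1 (-0.13) and Fyb (-0.02). In the costimulation and adhesion list they were Tnfrsf4 (-0.39) and Spn (-0.39, with 0.79 and 0.82 at its further tested probes).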
